A study of Mus musculus with 8 samples.

Results

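Phospholipase A2 enzymes were compared between the brains of BTBR/R and B6 mice on one-colour microarrays. A probe was included when the scanner output named Pla2g4a, Pla2g4b, Pla2g4d, Pla2g4e, Pla2g4f, Pla2g5, Pla2g6, Pla2g7, Pla2g12a or Jmjd7 as its gene, which selected 21 of 56605 probes for these 10 genes. B6 was the inbred strain C57BL/6J and BTBR/R was BTBRTF/ArtRbrc, a strain studied as a model of autism spectrum disorder, each with 4 male mice and no treatment. RNA of each mouse came from the whole cerebral cortex together with the striatum, so the regions were not separated. The mice were 4 months of age, apart from BTBR/R replicate 1 at 6 months. In bulk tissue, fewer cells of a type and less RNA per cell cannot be told apart.

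Phospholipases A2 cut the fatty acid from the middle position of a membrane phospholipid, leaving a lysophospholipid. Most of the cytosolic group IV enzymes respond to calcium, and Pla2g4a, the best known of them, prefers phospholipids carrying arachidonic acid, from which prostaglandins and leukotrienes are made. Pla2g4e differs in that it transfers an acyl chain between lipids, which makes N-acyl phosphatidylethanolamines, the precursors of anandamide and related lipids. Pla2g6 is the calcium-independent enzyme of neurons, whose loss causes neuroaxonal dystrophy. Pla2g5 and Pla2g12a are secreted enzymes, and Pla2g7 hydrolyses platelet-activating factor. Jmjd7 is a lysyl hydroxylase that lies next to Pla2g4b and shares a readthrough transcript with it.

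Pla2g4b, Pla2g4e and Jmjd7 lie on chromosome 2 in the mm9 build, along with Pla2g4d and Pla2g4f, and their probes span 268 kb. The targets of 6 probes follow as the 30 bases stated: the detected probes of Pla2g4b and Pla2g4e and the called probes of their neighbour Vps39, shown because the results turn on these probes. Capitals mark a 20-base stretch that recurs elsewhere, described with the Pla2g4b values. Both Pla2g4b probes lie on the plus strand and all others on the minus strand. Sequence of BTBR/R at these sites was not analysed here, and whether a probe lies in an exon's coding part or a UTR was not annotated here.
Pla2g4b A_51_P450752, bases 1 to 30, chr2:119867611-119867670: tcgttagagacgggacactgtgacacggaa
Pla2g4b A_55_P1964313, bases 31 to 60, chr2:119868539-119868598: ctggtggGATGGCTCAGCGGTTAAGAGtgc
Pla2g4e A_52_P203948, bases 1 to 30, chr2:119992643-119992702: tggttgttgagagattaatgacacccaacg
Pla2g4e A_55_P2744067, bases 1 to 30, chr2:119993267-119993326: acacagtctcaagtatagaatgtgaatatg
Vps39 A_65_P14327, bases 1 to 30, chr2:120142357-120142416: gcccttttacctggtaggcttgtagcatcc
Vps39 A_51_P460828, bases 1 to 30, chr2:120142641-120142700: agtaatgcaggagcagctctgttgagtatg

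Values are scaled signals, the log2 of the processed signal minus that array's 75th percentile, so 0 is the signal of the 75th percentile and a change is BTBR/R minus B6. Probes passed the test at an adjusted p below 0.05 and were called where the change was also at least 2-fold. The 2 strains differed in background: a probe needed a signal of 36.1 to 47.1 to be detected, that is, well above background, on the BTBR/R arrays, but 14.5 to 17.8 on the B6 arrays, and 53.5 to 57.2% against 64.5 to 66.8% of probes were detected. B6 mice lay in slide column 1 and BTBR/R mice in slide column 2, so strain and column cannot be told apart, while mice with the same replicate number shared a slide row. Striatal and cortical markers were detected on all 8 arrays (17 of 17 genes), and 1 of the 9 striatal genes was called lower. Of the choroid plexus (6) and non-telencephalic neuron genes (7) detected on all 8 arrays, 0 passed the test. The mean levels of these lists varied widely between mice. For choroid plexus they were -2.03 to 0.44 in B6 and -1.46 to -0.21 in BTBR/R, and for non-telencephalic neurons -1.87 to 1.67 and -1.60 to 0.65. Across the 8 mice, 8 of 12 immediate early genes were called higher in BTBR/R (the list's mean level was 0.68 to 1.98 in B6 and 2.44 to 2.70 in BTBR/R), 4 of 4 red blood cell genes were called lower (3.61 to 5.43 against 3.04 to 3.33), and of 8 microglial genes 5 passed the test with lower levels, 1 of them called, and 1 with a higher level (2.07 to 2.10 against 1.63 to 1.78). Of 6 endothelial genes, 3 passed with lower levels (0.95 to 1.02 against 0.62 to 0.71), as did 3 of 7 astrocyte genes (3.40 to 3.53 against 3.20 to 3.45) and 2 of 7 oligodendrocyte genes (3.87 to 4.24 against 3.65 to 3.90), and none of these was called or passed with a higher level. All measured genes of the last 6 lists were detected on all 8 arrays. What part any of these marker lists has in the results on phospholipases was not tested.

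Of the 21 probes, 13 were detected on all 8 arrays and covered 8 of the 10 genes, Pla2g4d and Pla2g4f being the other two. Among these 13 probes, 2 were called higher in BTBR/R, both of Pla2g4e, and 1 was called lower, for Pla2g4b. Across all 28547 probes detected on all 8 arrays, 1.04% were called higher and 1.16% were called lower. Beyond these, a smaller rise passed the test for 2 probes of Pla2g6, and a smaller fall passed for 1 probe each of Pla2g4a and Pla2g4b. In all, 4 of the 13 passed with a rise and 3 with a fall, where 13.0% and 13.9% of all probes detected on all 8 arrays did (26.9% in either direction). In 7 of the 13 the 4 mice of one strain did not overlap those of the other, beside 32.6% of the detected probes. The median change of the 13 was 0.004, beside 0.001 for all probes detected on all 8 arrays.

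**Figure D1:**
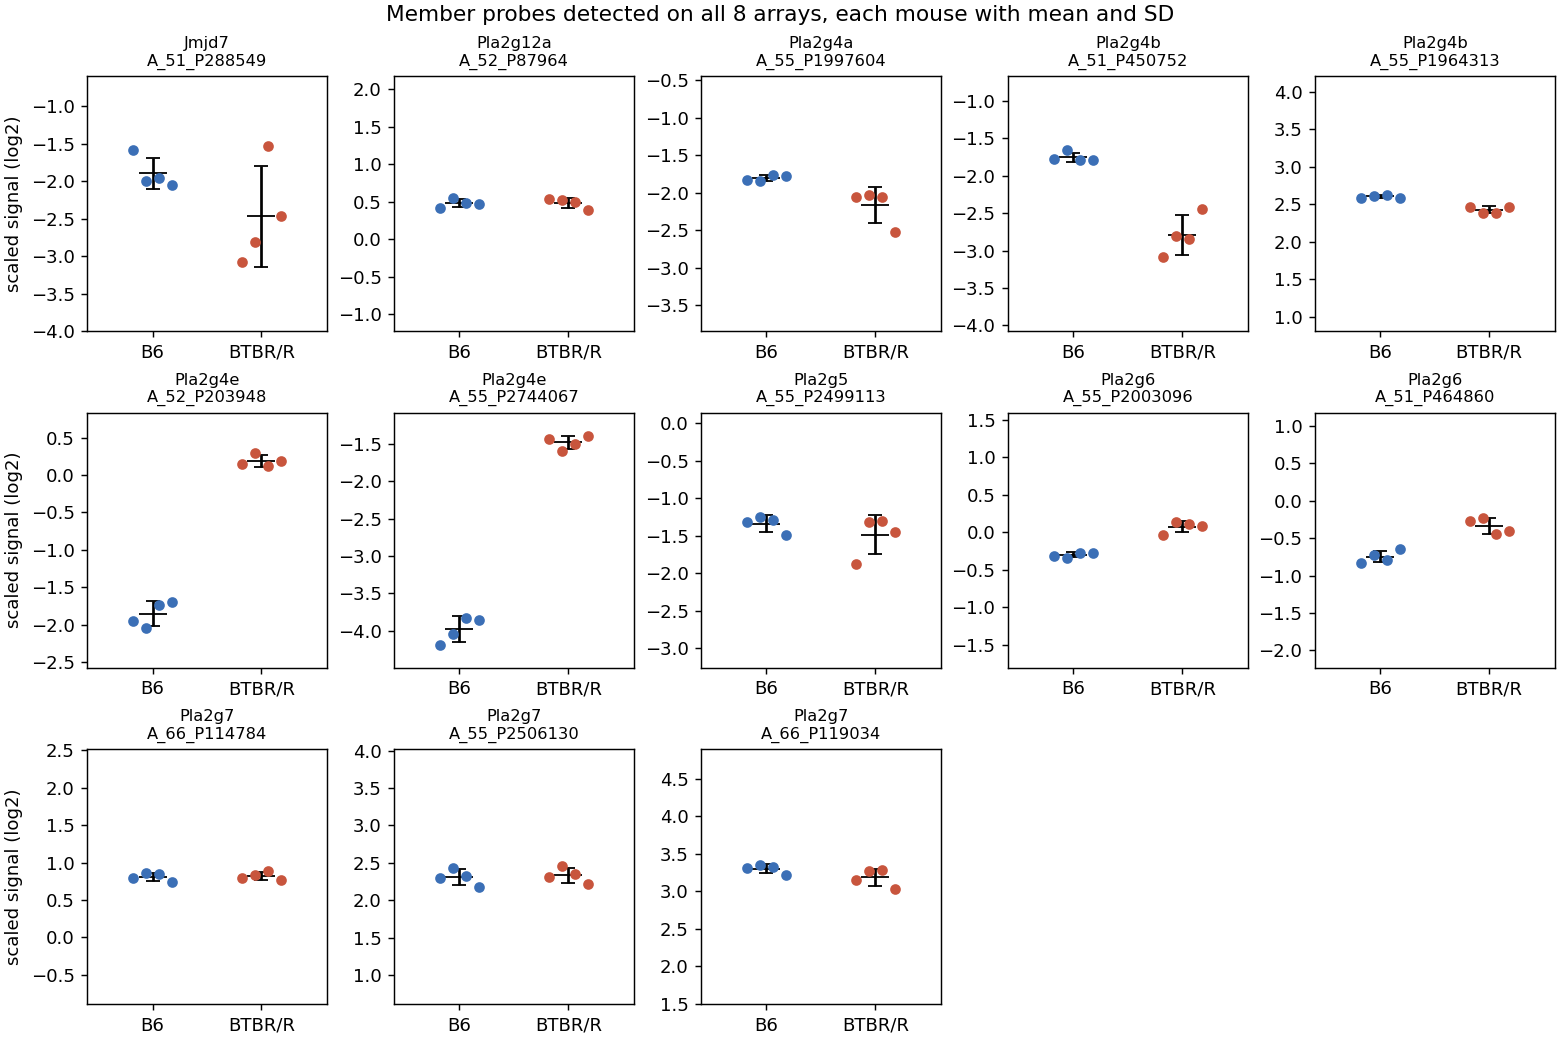
Scaled signal (log2) of the 13 probes detected on all 8 arrays, a panel a probe, with 4 mice of each strain as points, bars for the mean and SD, and the same height of axis in each panel. The strains are far apart in both Pla2g4e panels, where every BTBR/R mouse is above every B6 mouse, while the 3 Pla2g7 panels and Pla2g12a overlap.

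Pla2g4e was higher in every BTBR/R mouse at both of its detected probes. For A_55_P2744067 the B6 mice read -4.19, -4.04, -3.82 and -3.86 and the BTBR/R mice -1.44, -1.60, -1.51 and -1.39. The gap between the strains was far wider than the spread within either, and the fold was 5.62 (95% interval 4.82 to 6.55, adjusted p = 5.76e-06). For A_52_P203948 the B6 mice read -1.95, -2.04, -1.73 and -1.69 and the BTBR/R mice 0.14, 0.30, 0.13 and 0.19. Again no mouse overlapped, with a 4.11-fold rise (3.54 to 4.77, adjusted p = 1.25e-05). The probes lie 624 bases apart, and both list the transcript NM_177845. After normexp background correction the changes were 1.39 and 1.72 on the log2 scale, both still called. The within-array difference between the probes fell by 0.45 from B6 to BTBR/R (exact two-sided permutation p = 0.0286, the smallest that 4 against 4 mice allow, and 0.0571 adjusted over 6 pairs), but its direction was opposite after normexp correction, at 0.32. With every signal raised to the highest detection limit of the 8 arrays it was -0.02 (exact permutation p = 0.943), so no order of the 2 probes' changes is read from it.

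The other two Pla2g4e probes were not detected on any array. A_51_P362501 lies 5.1 kb from the pair and lists a transcript of its own, ENSMUST00000127009, and was called higher (adjusted p = 2.76e-05), yet its signal was the scanner software's substitute value on all 8 arrays. Its change was 1.49 on the log2 scale and 0.08 after normexp correction (adjusted p = 0.26). A_55_P2122896 lies 77.9 kb from the pair and read 0.996 higher on the log2 scale (adjusted p = 0.0207), with substitute values on 6 arrays, -0.004 after normexp correction and an adjusted p of 0.0508 with the slide row as a block. No level above background was measured for either.

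Both probes listed for Pla2g4b read lower in every BTBR/R mouse, by 2.06- and 1.13-fold on average. For A_51_P450752 the B6 mice read -1.78, -1.66, -1.79 and -1.79 and the BTBR/R mice -3.09, -2.80, -2.85 and -2.44. The BTBR/R mice spread more than the B6 mice but did not reach them, and the fold was 2.06 lower (1.66 to 2.54, adjusted p = 0.000488). Just past the 2-fold line, the call was lost without BTBR/R replicate 1, the mouse 6 months old, at a change of -0.94 (adjusted p = 0.000668), and after normexp correction, at -0.68 (adjusted p = 0.000391). For A_55_P1964313, which starts 928 bases further along, the B6 mice read 2.58, 2.62, 2.63 and 2.59 and the BTBR/R mice 2.47, 2.39, 2.39 and 2.46. That is a fall of 1.13-fold (1.06 to 1.21, adjusted p = 0.0136), which did not pass with the slide row, that is the replicate number, as a block (adjusted p = 0.0771). Within arrays, the first probe fell relative to the second by 0.86 on the log2 scale, and by 0.49 after normexp correction. The 0.86 does not pass the threshold over 6 pairs (exact permutation p = 0.0286, adjusted p = 0.0571). That p is the smallest that 4 against 4 mice allow, and the within-array differences of the strains did not overlap.

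Both Pla2g4b probes list, beside NM_145378, a transcript that RefSeq assigns to the readthrough gene of Jmjd7 and Pla2g4b, so neither separates the gene from that transcript. The stretch in capitals, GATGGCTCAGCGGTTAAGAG, was chosen after the values were seen as the 20-base window of A_55_P1964313 found most often in other sequence. On either strand it occurs in 10 of 32851 RefSeq promoter windows (build GRCm38.p6), or 0.0304%, and no 20-base window of A_51_P450752 occurs in any. Copies outside these promoter windows were not counted, so how common the stretch is elsewhere is not known here. A_55_P1964313 was also far brighter, at a mean of 2.61 in B6 beside -1.76 for A_51_P450752. What the stretch does to its signal, and whether the probe reads Pla2g4b alone, was not tested.

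Jmjd7, the neighbour upstream of Pla2g4b, gave values that overlapped. The B6 mice read -1.58, -2.001, -1.96 and -2.05 and the BTBR/R mice -3.08, -2.81, -1.53 and -2.46. In BTBR/R, 3 mice lay below every B6 mouse, while replicate 3 lay above them all. The change was -0.57 (95% interval -1.33 to 0.18, adjusted p = 0.203), and Jmjd7 passed the test in 1 of 19 other settings, without BTBR/R replicate 3, at -0.89 (adjusted p = 0.00931). It was -0.37 without BTBR/R replicate 1 (adjusted p = 0.392) and -0.19 after normexp correction (adjusted p = 0.518).

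**Figure D2:**
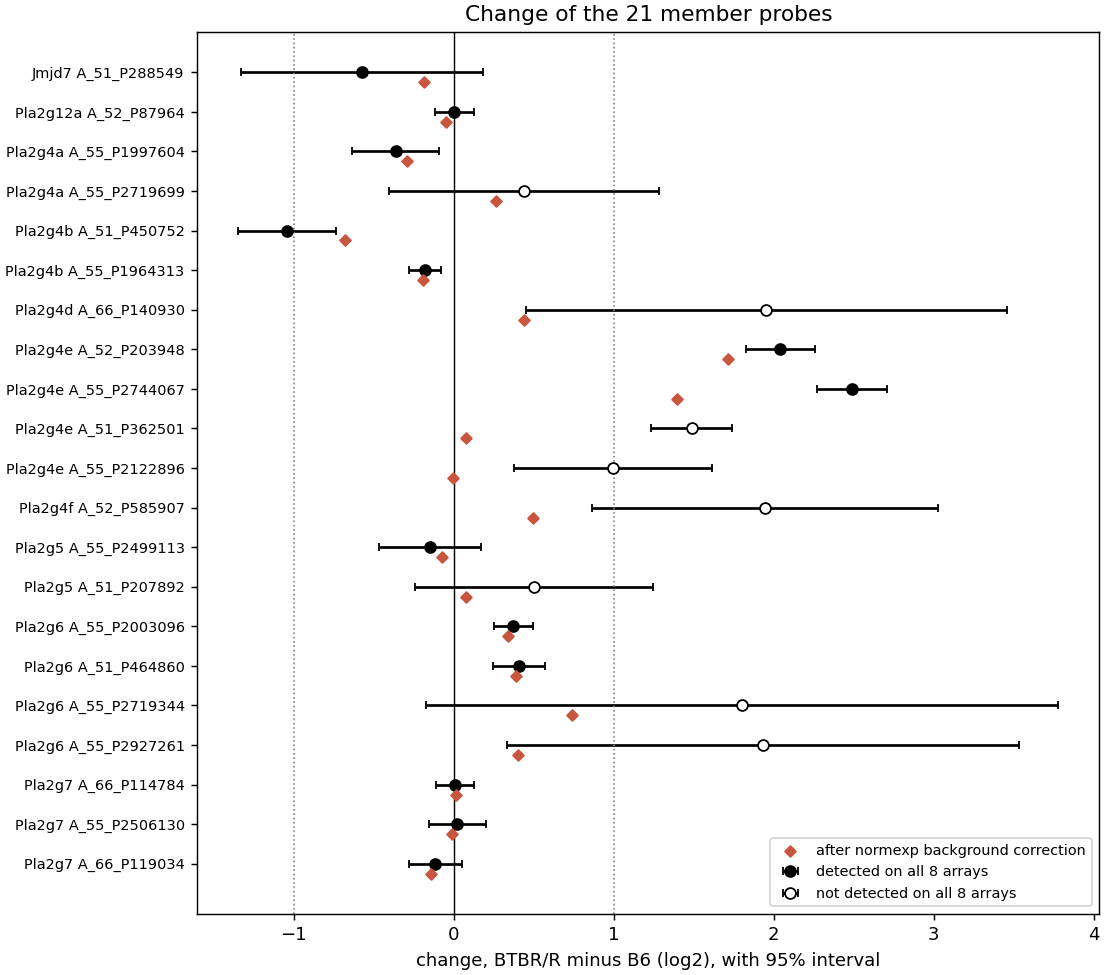
Change of each of the 21 probes (log2, BTBR/R minus B6) with its 95% interval from limma, filled where the probe was detected on all 8 arrays, and the change after normexp correction as diamonds. Dotted lines mark 2-fold. The open points lie to the right of 0, with diamonds closer to 0, while the filled Pla2g4e points stay beyond 2-fold on both.

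Pla2g4a, which releases arachidonic acid, was lower in each BTBR/R mouse. The B6 mice read -1.83, -1.84, -1.77 and -1.78 and the BTBR/R mice -2.06, -2.03, -2.05 and -2.53. Replicate 4 was lowest, and the strains did not overlap. The fall was 1.29-fold (1.06 to 1.55, adjusted p = 0.0432). Without that mouse the change was -0.24 (adjusted p = 0.00894), but the test was not passed without BTBR/R replicate 1 (adjusted p = 0.0537), without BTBR/R replicate 3 (adjusted p = 0.0549) or without any 1 of the 4 B6 mice (adjusted p = 0.0789 to 0.0952). The fall also missed the threshold by the methods' t-test run across all probes (Benjamini-Hochberg adjusted value 0.062), with the slide row as a block (adjusted p = 0.0886) and with signals raised to the highest detection limit (adjusted p = 0.12).

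Pla2g6 rose slightly at both detected probes. For A_55_P2003096 the B6 mice read -0.31, -0.34, -0.27 and -0.28 and the BTBR/R mice -0.03, 0.13, 0.11 and 0.09. For A_51_P464860 the B6 mice read -0.83, -0.72, -0.79 and -0.65 and the BTBR/R mice -0.27, -0.23, -0.45 and -0.40. No mouse overlapped at either probe, with rises of 1.30-fold (1.19 to 1.41, adjusted p = 0.000842) and 1.33-fold (1.18 to 1.49, adjusted p = 0.00267). The 2 probes did not differ detectably in their change (a difference of 0.03 on the log2 scale, exact permutation p = 0.743). Both rises passed the test under all 19 other settings, of which the authors' deposited values repeat the same scaling.

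Pla2g7, Pla2g5 and Pla2g12a did not pass the test. The 3 Pla2g7 probes changed by 0.01 (95% interval -0.11 to 0.13), 0.02 (-0.15 to 0.20) and -0.11 (-0.28 to 0.05), so that a 2-fold change lies outside each interval. Pla2g12a changed by 0.00 (-0.12 to 0.13), with B6 values of 0.42, 0.55, 0.48 and 0.48 and BTBR/R values of 0.53, 0.52, 0.50 and 0.40. The detected Pla2g5 probe changed by -0.15 (-0.46 to 0.17), the B6 mice reading -1.32, -1.25, -1.28 and -1.49 and the BTBR/R mice -1.87, -1.32, -1.30 and -1.45. These genes encode the secreted enzymes and the hydrolase of platelet-activating factor, and their mice overlapped between strains.

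The 8 probes not detected on all 8 arrays all had changes above 0, from 0.44 to 1.95, and 39.6% of all such probes on the array were called higher. Of the 8, 3 were called: Pla2g4d (adjusted p = 0.0463), Pla2g4f (adjusted p = 0.0129) and the Pla2g4e probe A_51_P362501. Pla2g4d, an enzyme described mainly in skin, was detected on 1 of 4 BTBR/R arrays and no B6 array, and Pla2g4f on none. With signals raised to the highest detection limit of the 8 arrays, their changes were 0.07 and 0, and with the slide row as a block the Pla2g4d call was lost (adjusted p = 0.0857). Of the remaining 5, the other two probes of Pla2g6 were detected on 3 and 1 of the 8 arrays, and Pla2g4e A_55_P2122896 and a second probe each of Pla2g4a and Pla2g5 on none. All 8 held substitute values on at least 1 array, and no fold can be given for them.

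Around the cluster, 30 probes of other genes lay within 200 kb of it, and 14 of these were detected on all 8 arrays. Of the 14, 1 was called higher and 1 lower (1.04% and 1.16% of all probes detected on all 8 arrays were), both of Vps39, a subunit of the lysosomal tethering complex, and the other 12 changed by -0.16 to 0.37. Vps39 A_65_P14327 read 3.67 to 3.77 in B6 and 2.59 to 2.70 in BTBR/R, a 2.15-fold fall (adjusted p = 9.74e-06). Vps39 A_51_P460828, which starts 284 bases away, read 1.94 to 2.06 in B6 and 3.13 to 3.20 in BTBR/R, a 2.25-fold rise (adjusted p = 6.49e-06). The third Vps39 probe changed by 0.21 (adjusted p = 0.0673). Over all 30 probes, 5 were called higher and 2 lower, beside 20.2% and 2.27% of all 56605 probes. The 4 called higher that were not detected on all 8 arrays were of 4930485G23Rik, Gm13999, 4931402G19Rik and Capn3, of which 3 were detected on none and 4931402G19Rik on 1 BTBR/R array, and these are named after their values were seen. The other one called lower, 6330405D24Rik, had detection in 4 B6 mice (adjusted p = 0.000319) and no BTBR/R mouse, so no size is given, and its change after normexp correction was -0.28. The median change was 0.05 over the 14, beside 0.001 over all probes detected on all 8 arrays, and 0.05 over all 30, beside 0.07 over all 56605 probes.

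**Figure D3:**
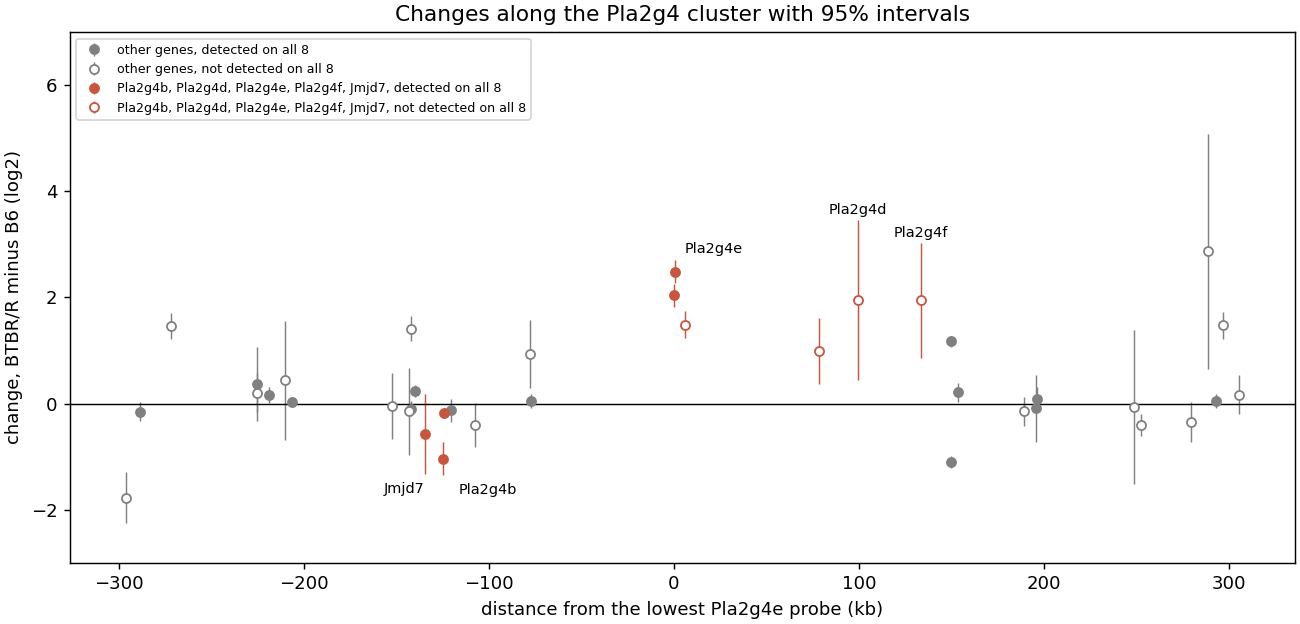
Change of each probe in the chromosome 2 window (log2, BTBR/R minus B6) with its 95% interval against its distance in kb from the lowest Pla2g4e probe, red for the 5 named genes, grey for others, filled where detected on all 8 arrays. Both filled Pla2g4e points lie above 2 on the log2 scale, and 12 of the 14 filled grey points lie between -0.16 and 0.37.

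The enzymes and receptors around phospholipase A2 were set beside these genes, with the probe of highest mean signal for each gene. Of 87 genes on the array in 7 lists, 7 were called higher and 5 lower, while 20.2% and 2.27% of all 56605 probes were. Only 57 were detected on all 8 arrays, and of these 2 were called, both lower, 4 passed the test with higher levels and 16 with lower levels. Of all 28547 probes detected on all 8 arrays, 1.04% were called higher, 1.16% were called lower, and 13.0% and 13.9% passed with higher and lower levels. The median change of the 57 was -0.07, beside 0.001 for those probes.

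Among the 17 other phospholipases and lipases, none of the 8 detected on all 8 arrays was called, and Pnpla7, Pnpla2 and Pla2g3 passed with falls of 1.56-, 1.19- and 1.24-fold. Of the prostanoid enzymes, Ptgs2, the inducible cyclooxygenase, rose 1.84-fold (1.41 to 2.40, adjusted p = 0.00412), the B6 mice reading -2.17, -1.63, -1.58 and -2.15 and the BTBR/R mice -0.91, -1.21, -1.003 and -0.89. Ptgs2 is itself induced by neuronal activity, and it moved with the immediate early genes given above, whose part in it was not tested. Ptgis, prostacyclin synthase, fell 1.39-fold (adjusted p = 0.0268). Hpgd, which inactivates prostaglandins, was at least 2.74-fold lower, detected in 4 B6 mice and 2 BTBR/R mice (adjusted p = 0.000353).

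Of the lipoxygenases, Alox12b fell 2.40-fold (1.87 to 3.07, adjusted p = 0.000384), and Alox8, detected in 4 B6 mice and 1 BTBR/R mouse, was at least 3.31-fold lower (adjusted p = 0.000281). After normexp correction Alox12b changed by -0.83 and Hpgd by -0.81, both less than 2-fold, and Alox8 by -1.08. For such a bound the mean of the brighter strain was set against, on each array of the other strain, its detection limit or the probe's own signal, whichever was larger. The bounds hold for that scaling and those limits only: with every signal raised to the highest limit of the 8 arrays, Hpgd changed by -1.44 and Alox8 by -1.60. Among 14 receptors only 2 were detected on all 8 arrays. Ptger2, a receptor for prostaglandin E2, was called higher (1.18, adjusted p = 0.000596) with detection in 4 B6 mice and 1 BTBR/R mouse, and Ltb4r1, a leukotriene B4 receptor, was called lower (-1.08, adjusted p = 0.00426) with detection in 4 B6 mice and no BTBR/R mouse. No fold is given for either, and after normexp correction neither was called, at 0.55 for Ptger2 and -0.16 for Ltb4r1.

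In reacylation, which returns fatty acids to lysophospholipids, all 14 genes were detected on all 8 arrays. Of these, 4 passed the test with lower levels and 0 with higher levels, beside 13.9% and 13.0% of all probes detected on all 8 arrays. Mboat2, an acyltransferase of that step, fell 2.86-fold (2.62 to 3.12, adjusted p = 4.33e-06) at its brightest probe, but by 1.40- and 1.26-fold at its other two. Lpcat2 fell 1.45-fold (adjusted p = 4.89e-05). Both Pafah1b3 and Pafah2, hydrolases of platelet-activating factor like Pla2g7, rose, by 1.33-fold (adjusted p = 0.00546) and 1.24-fold (adjusted p = 0.00634). The other genes of that list of 4 did not pass the test.

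The N-acylethanolamine genes bear on the lipids that Pla2g4e makes. Gdpd3, a lysophospholipase D of that route, was at least 46.2-fold higher in BTBR/R, with B6 values of -5.43, -4.70, -5.20 and -5.20 and BTBR/R values of 0.43, 0.47, 0.85 and 0.38 (adjusted p = 2.35e-06). It was detected on 1 of 4 B6 arrays and all 4 BTBR/R arrays. The bound rests on the low detection limits of the B6 arrays: the change was 4.08 on the log2 scale with every signal raised to the highest limit of the 8 arrays, and 3.54 after normexp correction. In the endocannabinoid and N-acylethanolamine list, 13 genes were detected on all 8 arrays and 0 of these were called. Of the 13, 4 passed the test with lower levels and 1 with a higher level. Among all probes detected on all 8 arrays, 13.9% and 13.0% did, and not all of the genes that passed are named here. Naaa, which breaks N-acylethanolamines down, fell 1.83-fold (1.58 to 2.13, adjusted p = 0.000182), and Abhd4, which acts on their precursors, fell 1.40-fold (adjusted p = 0.000639). Napepld, the phospholipase D that acts on the same precursors, changed by 0.03 (adjusted p = 0.746) and Faah by -0.004 (adjusted p = 0.957).

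**Figure D4:**
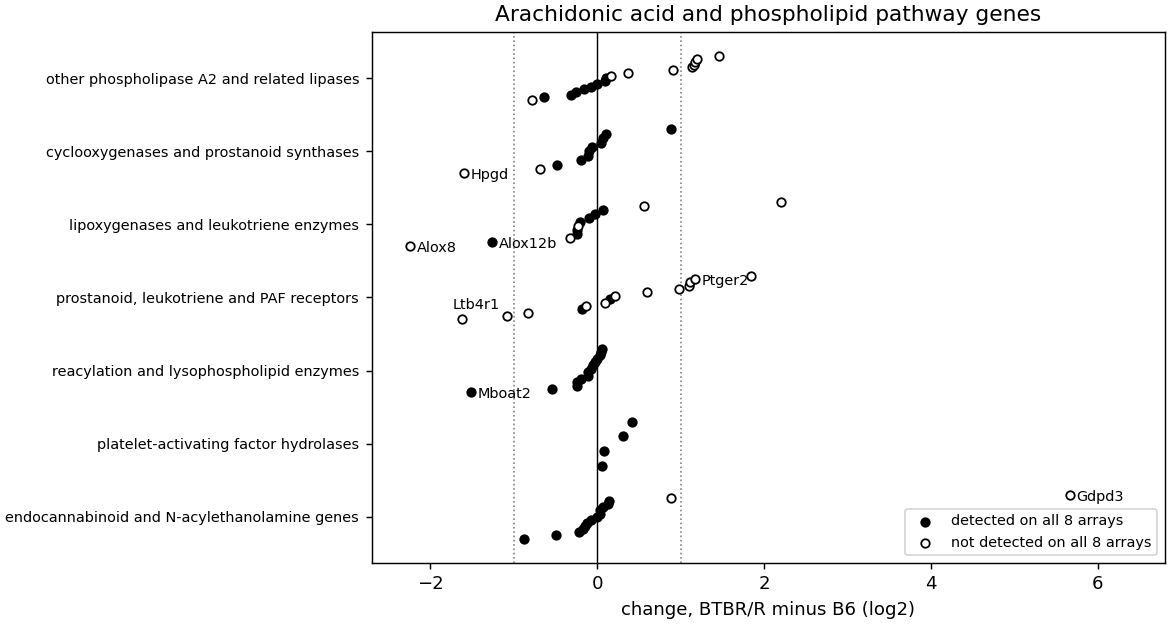
Change (log2, BTBR/R minus B6) of 87 pathway genes in 7 lists, a point a gene, filled where detected on all 8 arrays, with the genes named that were called and detected in all mice of at least 1 strain. Dotted lines mark 2-fold. Open points, Gdpd3 at the far right among them, include signals not well above background, so their distance from 0 is not a measured size, and the filled points beyond 2-fold are Alox12b and Mboat2.

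The probes of other genes whose 8 values followed Pla2g4e A_55_P2744067 most closely, by the root mean square difference from each probe's own B6 mean among 28545 probes, were BB430852 (0.108), Plekhb2 (0.142), Masp2 (0.145), Wdr48 (0.146) and BX522927 (0.158), on chromosomes X, 1, 4, 9 and 12. Those nearest to Pla2g4b A_51_P450752 were ENSMUST00000180541 (0.0879), Kcnv1 (0.139), AK047230 (0.139), Anxa3 (0.144) and Abcd2 (0.147). None lies on chromosome 2. With 2 strains, this distance largely reflects how alike the strain changes were. The changes were 2.41 to 2.60 for the probes nearest to Pla2g4e, itself at 2.49. They were -0.98 to -1.13 for those nearest to Pla2g4b, itself at -1.04. Other probes of the same gene were left out of each ranking, and shared variation between mice of a strain was not tested.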

How the data were processed

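RNA was hybridized to Agilent SurePrint G3 one-colour arrays. The authors' deposited intensities came from Agilent Feature Extraction 10.7.3.1, which subtracts background and gives a substitute value to very dim spots. The deposited log2 values, which the authors made in GeneSpring GX by signal analysis and batch normalization, were an alternative in name: on each array they equal the log2 processed signal minus 1 constant, within 0.01, for at least 99.97% of probes, so they repeat the scaling used here. Processed signals of 56605 probes (repeat spots averaged, outlier spots left out) were put on the log2 scale and each array's 75th percentile subtracted. limma 3.58.1 in R 4.3.3 compared the strains, with Benjamini-Hochberg adjustment over all probes. On simulated data it called 79 of 100 changes of 1.5 and 88 of 100 of 2.5 (log2), and 9 unchanged probes. The simulation had no strain difference in background and no substitute values, so it does not test calls of dim probes. Each array was 1 mouse, and precision is limited by having 4 arrays a strain. Pairs of probes were tested by exact permutation (scipy 1.17.1). Probe positions are those of the scanner files (mm9), and 17 of 21 probes matched RefSeq accessions. Named genes were all members, called and detected genes of the pathway and neighbour lists, and the 5 nearest probes; other genes were named after their values were seen. Members and lists were chosen with earlier results of these data known. Alternatives covered background correction, scaling, values, filters, test, replicate block and left-out mice. Same-numbered mice correlated at -0.07 to 0.16, so numbers, which also mark the slide row, were not taken as pairs.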

Additional observations from a re-analysis of the deposited data

Results flagged for a closer look

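In 4 of 70 groups of 4 mice, 1 mouse lay apart from the other three by more than Dixon's 95% limit, where chance flags about 1 in 20. For Pla2g4a A_55_P1997604, BTBR/R replicate 4 read -2.53 while the other BTBR/R mice read -2.06 to -2.03. For Pla2g4b A_51_P450752, B6 replicate 2 read -1.66 while the others read -1.79 to -1.78, a narrow group in which the distance is small. For Pla2g5 A_51_P207892, not detected on any array, BTBR/R replicate 1 read -4.55 beside -5.79 to -5.60. For Pla2g6 A_55_P2927261, BTBR/R replicate 4 read -2.88 beside -6.05 to -5.65, and that was the only array on which the probe was detected.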

How the results depend on the processing

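Both detected Pla2g4e probes stayed called under all 19 other settings (the deposited values among them repeat the same scaling and add no test), at 1.72 to 2.09 and 1.39 to 2.54 on the log2 scale. The count of phospholipase A2 probes called higher, 5, was 2 with normexp correction, quantile normalization, either detection filter or the floor; the count called lower, 1, was 0 with normexp. Pathway genes called, 12, were 3 with normexp, 7 with quantile normalization, 7 when only probes detected in all mice of either strain were kept, 2 when detection in all mice was required, and 5 with the floor. Neighbour probes called, 7, were 2, 3, 3, 2 and 2. Leaving out 1 mouse gave 4 to 6 higher, 0 to 1 lower, 10 to 13 pathway genes and 6 to 7 neighbours. The undetected Pla2g4e A_55_P2122896 changed sign with normexp (-0.00398) and quantile normalization (-0.0949). The cause was not tested, except that the filters remove undetected probes. With the replicate block, 4 probes were called higher, 1 lower, 11 pathway genes and 6 neighbours; Pla2g4a A_55_P1997604 (adjusted p = 0.0886), Pla2g4b A_55_P1964313 (0.0771), Pla2g4d A_66_P140930 (0.0857) and Pla2g4e A_55_P2122896 (0.0508) no longer passed the test; same-numbered mice share a slide row, and their deviations correlated at -0.07 to 0.16. Of the 6 probe pairs, 0 passed after adjustment by exact permutation, in each setting run. In the main setting 3 had an unadjusted p of 0.0286, the smallest that 4 against 4 mice allow, which became 0.0571 over 6 pairs. With 1 mouse left out the smallest possible p is 0.0571, so no pair could pass there. The 0 therefore does not show that the probes of a gene changed alike. Across all probes, calls higher and lower were 11413 and 1284, and 231 and 332 with normexp; background on the arrays limits what can be said of dim probes.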
